A study of Sus scrofa with 8 samples.

Results

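The neuron subtype transcription factors described here are the 8 genes ISL1, LHX1, LHX9, MNX1, NEUROD1, NEUROG1, POU4F1 and PRDM12, out of 21301 genes in each count matrix. They were chosen by name, and all 8 were found in all 8 libraries' gene tables. Single-cell RNA sequencing was performed on somites of pig embryos at embryonic day (E) 16, 18 and 21 and on the myotome at E28. At each stage 1 library came from Tibetan pigs (ZZ) and 1 from DurocxTibetan pigs, a cross (DZ), and each library pooled 5 embryos of a single sow, with no treatment. The 8 libraries are named E16-ZZ to E28-DZ below. After quality control 74147 cells remained, and between 39852689 and 57568895 unique molecular identifiers (UMIs, counted RNA molecules) stood behind each library. Any pair of libraries shared between 13 and 38 cell barcodes. E28 differed from the other stages in tissue as well as in age, so stage and tissue cannot be told apart there.

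These factors are used to name classes of young neurons. NEUROG1 and NEUROD1 are basic helix-loop-helix factors that act in sequence as progenitors become neurons, and NEUROG1 starts this program in many sensory neurons. ISL1, a LIM-homeodomain factor, marks both motor neurons of the spinal cord and sensory neurons of the dorsal root ganglia. MNX1 is a motor neuron factor, POU4F1 is a sensory neuron factor, and PRDM12 is required for pain-sensing neurons. LHX1 and LHX9 are LIM-homeodomain factors of different spinal interneuron classes, LHX9 belonging to the dorsal commissural class that also carries BARHL genes. Outside the nervous system ISL1 is known from cardiac progenitors and the hindlimb bud, LHX1 from the early kidney, and LHX9 from the limb bud.

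In Sscrofa11.1, ISL1 (ENSSSCG00000016883) lies on chromosome 16 at 30962994 to 30974201, NEUROD1 (ENSSSCG00000016011) on chromosome 15 at 87175629 to 87179953, LHX1 (ENSSSCG00000017692) on chromosome 12 at 38450708 to 38457583, and LHX9 (ENSSSCG00000010903) on chromosome 10 at 20742323 to 20764006. The 250 bases before the RefSeq gene start are shown for ISL1, NEUROD1 and LHX9, which are among the 4 factors that could be tested between stages. They are written in the direction of transcription, the last base being next to the start. Capitals mark each CANNTG, the E-box that basic helix-loop-helix factors can bind and that reads the same class on both strands.
ISL1, chr16:30962744-30962993, plus strand: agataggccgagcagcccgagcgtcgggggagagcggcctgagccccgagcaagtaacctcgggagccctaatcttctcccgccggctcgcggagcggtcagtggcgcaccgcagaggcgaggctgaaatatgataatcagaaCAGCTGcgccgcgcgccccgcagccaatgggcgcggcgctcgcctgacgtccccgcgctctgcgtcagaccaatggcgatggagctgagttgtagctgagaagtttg
NEUROD1, chr15:87179954-87180203, minus strand: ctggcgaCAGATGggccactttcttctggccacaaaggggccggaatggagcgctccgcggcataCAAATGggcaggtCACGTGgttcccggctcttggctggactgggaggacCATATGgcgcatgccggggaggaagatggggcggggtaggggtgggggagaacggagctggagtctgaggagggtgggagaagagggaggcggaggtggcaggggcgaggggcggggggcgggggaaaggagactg
LHX9, chr10:20742073-20742322, plus strand: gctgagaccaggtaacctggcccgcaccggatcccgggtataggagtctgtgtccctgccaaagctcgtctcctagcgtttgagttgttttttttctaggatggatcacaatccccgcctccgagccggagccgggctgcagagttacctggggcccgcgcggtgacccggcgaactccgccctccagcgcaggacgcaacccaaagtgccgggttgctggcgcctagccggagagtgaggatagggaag
The NEUROD1 window held 4 E-boxes, that of ISL1 held 1, and that of LHX9 held 0. At least 1 E-box was found in 61.9% of the 19545 windows of the same length before protein-coding genes, and at least 4 in 3.18%. The homeodomain core TAATTA was in none of these 3 windows and in 3.73% of all windows. These matches describe letters only.

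Neuron-marker cells were those with a UMI of at least 2 of the gate genes STMN2, ELAVL4, DCX and NEFL. NEFM, the fifth gene of the gate, was not found by name and was not used. The gate held 5809 cells, 7.83% of all cells. From the earliest stage to the last it took 54, 298, 2341 and 627 cells of the ZZ libraries and 121, 509, 1040 and 819 of the DZ libraries. Many cells stood near its edge, with 3062 having exactly 2 gate genes and 20675 exactly 1.

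The label held for most gated cells at E21 but not at the other stages. At least 4 of 14 further pan-neuronal genes, such as GAP43 and SYT1, were found in 75.2% of the gated cells of E21-ZZ and 74.9% of those of E21-DZ. In the other 6 libraries this share was between 8.45% and 27.5%. At E28 at least 2 fibroblast marker genes were found in 89.5% (ZZ) and 73.7% (DZ) of the gated cells, against 14.8% and 17.1% at E21. At E18 they were in 38.9% and 27.5%. Cells outside the gate had them in 35.8% and 36.5% at E18, 55.6% and 64.8% at E21, then 91.7% and 85.5% at E28. At E16 at least 2 epithelial marker genes were found in 38.9% (ZZ) and 47.1% (DZ) of gated cells. Outside the gate these shares were 38.4% and 39.9%. Levels are therefore also given for the 2747 cells with at least 3 gate genes, called the stricter gate, where the pan-neuronal share was 60.0% and 71.4% at E18, 95.3% and 96.1% at E21, then 73.5% and 85.7% at E28. E16 then kept 7 and 16 cells. Fibroblast markers remained more frequent at E28 in this gate, in 34.7% and 18.5% of cells against 3.71% and 4.91% at E21, and cartilage markers were in 20.4% of its E28-ZZ cells. The part that fibroblast-marker cells had in the E28 levels of the wider gate was not tested beyond this comparison.

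**Figure D1:**
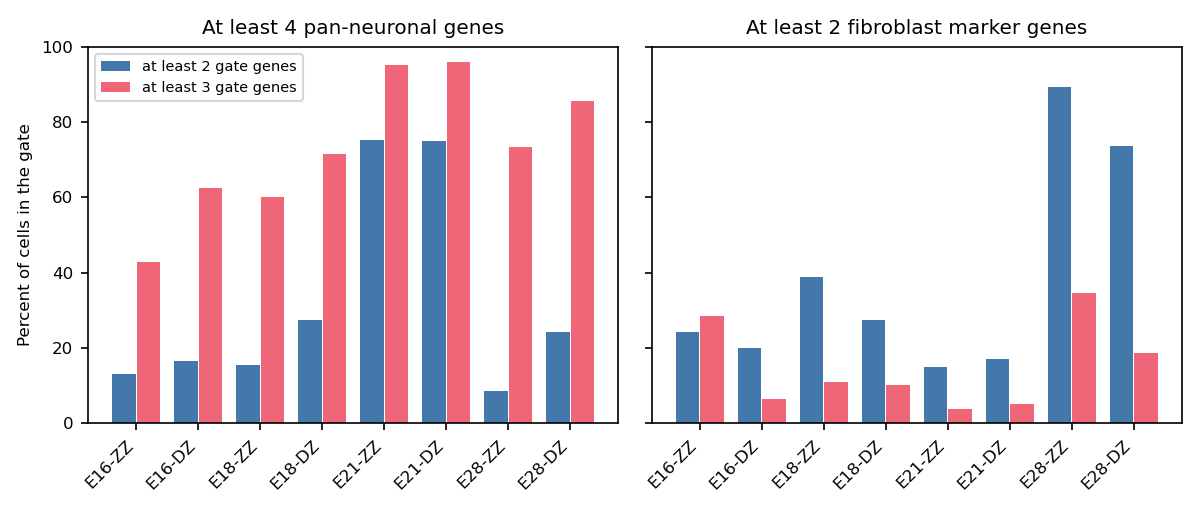
Percent of gated cells in each library with at least 4 pan-neuronal genes (left) and with at least 2 fibroblast marker genes (right); blue bars are cells with at least 2 gate genes and red bars cells with at least 3. At E28 the blue bars reach 89.5% and 73.7% for fibroblast markers while the red pan-neuronal bars stand at 73.5% and 85.7%.

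ISL1 was the most abundant of the 8 factors in neuron-marker cells when all libraries were pooled, and its level was higher at E21 than at E18. Its level is given as CPM, the UMIs of the gene per 1000000 UMIs summed over the gated cells of a library. It was 6.69 and 7.92 CPM at E16, 35.5 and 48.5 at E18, 279.4 and 217.7 at E21, then 65.4 and 214.3 at E28, with ZZ first in each pair. Both E21 libraries stood above all 4 earlier libraries, and the E28 libraries differed from each other by more than the E21 libraries did. With the stricter gate the levels were 164.9 and 172.7 CPM at E18, 373.8 and 315.3 at E21, then 523.9 and 629.4 at E28, so each stage lay wholly above the stage before it. A summed level does not tell fewer positive cells from less RNA per cell, so shares of cells are given beside it. Under the stricter gate a UMI of ISL1 was found in 38.2% and 36.4% of cells at E18, 39.0% and 42.1% at E21, then 73.5% and 85.7% at E28. After each cell was thinned to 1500 UMIs these shares were 27.3% and 25.4%, 26.4% and 26.1%, and 49.0% and 60.6%.

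NEUROD1 was lower than ISL1 in the pooled gated cells of E18, E21 and E28, though not in E16-DZ. It measured 2.23 and 10.9 CPM at E16, 14.7 and 19.7 at E18, 67.6 and 88.1 at E21, then 31.9 and 105.1 at E28. Under the stricter gate the values were 85.6 and 76.4 CPM at E18, 78.9 and 110.8 at E21, then 143.5 and 214.5 at E28. The E18 and E21 values overlapped there, whereas both E28 libraries were above them. Thinned shares of cells with NEUROD1 were 12.7% and 13.8% at E18, 8.70% and 12.3% at E21, then 16.3% and 24.5% at E28 in the stricter gate.

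LHX1 and LHX9, the interneuron factors, were found in neuron-marker cells almost wholly at E21. LHX1 was at 0 and 4.95 CPM at E16, 6.93 and 1.08 at E18, 77.9 and 37.7 at E21, and at 0 in both E28 libraries. In the stricter gate it was 22.2 and 1.42 CPM at E18 and 101.7 and 55.1 at E21. LHX9 was at 0 in both E16 libraries, at 0.433 and 0.809 CPM at E18, 19.4 and 15.8 at E21, then 0.316 and 0 at E28, so both factors had their highest levels at E21. Of 553 gated cells with LHX1, 426 were from E21-ZZ and 111 from E21-DZ, and of 138 with LHX9, 97 and 37 were. At E28, 0 of 1446 gated cells had LHX1, which allows a share of cells with a UMI of up to 0.207%, and 0 of 238 cells of the stricter gate did, which allows up to 1.26%. These limits are for cells with a UMI, not for cells that express the gene, and the 1446 cells include the many with fibroblast markers.

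**Figure D2:**
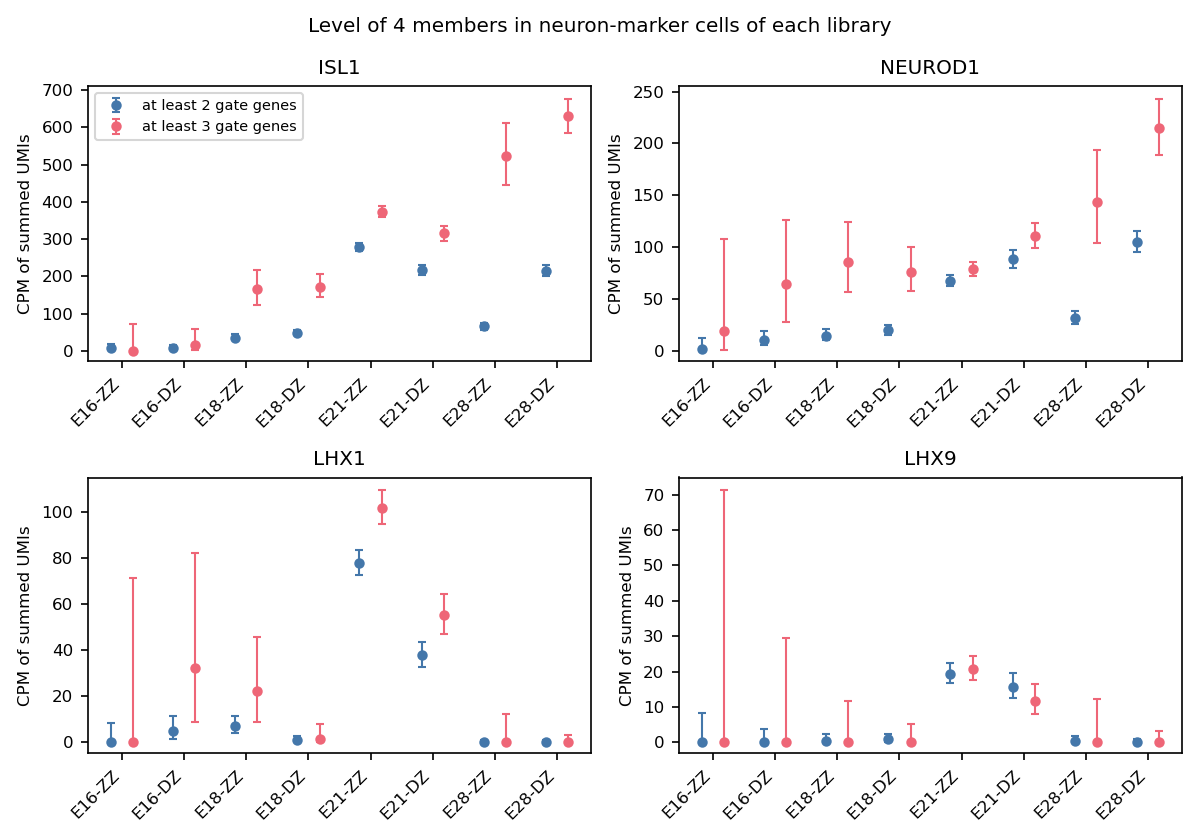
CPM of ISL1, NEUROD1, LHX1 and LHX9 in each library for cells with at least 2 (blue) and at least 3 (red) gate genes; points are levels and bars exact 95% Poisson intervals, which cover counting error only. ISL1 and NEUROD1 remained at E28 in the red points (523.9 and 629.4 CPM for ISL1), whereas LHX1 and LHX9 had no UMI in the red points of E28 and their highest points at E21.

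PRDM12 was rare, with 28 gated cells, none at E16, 1 at E18, 12 at E21 and 15 at E28. MNX1 was found in 7 gated cells, 3 in E21-ZZ and 4 in E21-DZ. NEUROG1 was found in 5 gated cells and POU4F1 in 3. Of POU4F1 a single UMI was counted in each of E21-ZZ, E21-DZ and E28-DZ. These numbers were too low for the tests between stages, which took 4 of the 8 factors. The assay counts the 3' end of an RNA, and whether the annotation covers the 3' ends of these genes in the pig was not tested.

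UMIs of some factors also appeared in endothelial-marker cells, which are used here for comparison. A cell could be in several marker groups, and whether these UMIs were RNA of other cells was not tested. A UMI of ISL1 was found in 4.29% of endothelial-marker cells at E16 and 3.98% at E18, with a median of 7403 to 9701 UMIs per cell by library, against 0% at E21 and E28. The ISL1 share of 4.00% in neuron-marker cells at E16, whose median depth was 6945 and 7117 UMIs, was not above that in endothelial-marker cells. At E18 it was 15.1%, above the 3.98% of endothelial-marker cells. LHX1 was found in 1.61% of neuron-marker cells at E18 and in 3.02% of endothelial-marker cells, so the pooled E18 share was not above that in endothelial-marker cells. The libraries differed, with LHX1 in 5 of 55 cells of the stricter gate in E18-ZZ (9.09%) and 1 of 140 in E18-DZ (0.714%). LHX9 was found in 3.96% of neuron-marker cells at E21 and in 1.49% of 202 endothelial-marker cells. NEUROD1 was found in 2 of 2855 endothelial-marker cells over all libraries, a share of 0.0701%.

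Libraries were compared with edgeR's quasi-likelihood test on the UMI counts of all genes summed over gated cells, with Benjamini-Hochberg adjustment over all genes tested. The libraries of a stage were of different breeds, and the fits between stages had a term for breed. Their p-values measure the spread between libraries that is left after the stage and breed terms. No breed had a replicate library at a stage. Between E18 and E21 edgeR called the 4 tested factors higher at E21, where 17.8% of the 11896 genes tested rose. LHX9 passed the filter on low counts only through its E21 libraries, so this count is not support for a rise of the group and its own values are given as a description. The log2 fold change of ISL1 was 2.53 ± 0.36 (SE, adjusted p = 0.00061) and that of NEUROD1 2.13 ± 0.31 (adjusted p = 0.000725). LHX1 rose by 3.90 ± 0.49 on the log2 scale (adjusted p = 0.000463), a call that the DESeq2 test did not make (adjusted p = 0.113). From UMIs pooled over the libraries of a stage, LHX1 was 19.6-fold higher at E21 than at E18 (95% counting interval 12.6 to 32.2) and LHX9 27.5-fold (10.6 to 101.5). These intervals leave out the spread between libraries. With 1 library left out the log2 change of LHX1 ran from 3.22 (without E18-DZ) to 5.14 (without E18-ZZ). That of ISL1 ran from 1.81 (without E21-ZZ) to 3.14 (without E21-DZ). Each of these fits had 1 library at a stage. All 14 tested pan-neuronal genes rose in this comparison, with a median log2 change of 3.22, above the values of ISL1 and NEUROD1, and the share of gated cells with at least 4 of them was 15.4% and 27.5% at E18 against 75.2% and 74.9% at E21. The part of this shift in the rise of the factors was not tested beyond the stricter gate.

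In the stricter gate 3 of the 4 factors were called higher at E21 than at E18, where 11.1% of 8952 genes were. LHX1 and LHX9 passed the filter on low counts there only through their E21 libraries, so nothing is read from this count. ISL1 rose by 0.90 ± 0.22 on the log2 scale (adjusted p = 0.0066). As a description, the pooled LHX1 level was 11.3-fold higher at E21 (95% counting interval 5.71 to 26.2), and LHX9 went from 0 UMIs to a level at least 6.22-fold above the limit of 3 UMIs over the E18 libraries. NEUROD1 differed by 0.13 ± 0.26 (adjusted p = 0.783). Of the 14 pan-neuronal genes 12 rose there, with a median of 1.86. The NEUROD1 call of the wider gate was thus not made in the cells with more neuronal genes. With a mitochondrial limit of 5%, which kept 494 of the 1040 gated cells of E21-DZ, its log2 change in the wider gate was 1.54 ± 0.60 and missed the threshold (adjusted p = 0.0792).

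Between E21 and E28 edgeR called LHX1 and LHX9 lower at E28, 2 of 4 factors, where 11.3% of genes fell. As LHX9 was tested only through its E21 counts, nothing is read from this count. LHX1 was at least 152.2-fold lower at E28, against the limit of 3 UMIs over both E28 libraries (adjusted p = 0.000106). LHX9 had 276 UMIs at E21 and 1 at E28, a ratio of 127.9 with a 95% counting interval of 22.8 to 5070, given as a description. The direction for ISL1 and NEUROD1 depended on the gate. In the wider gate ISL1 differed by -1.0 ± 0.34 on the log2 scale (adjusted p = 0.0568) and NEUROD1 by -0.35 ± 0.28 (adjusted p = 0.412). With E28-DZ left out, which leaves 1 library at E28, they fell by 1.83 and 0.94. With E21-DZ left out, which leaves 1 library at E21, ISL1 fell by 1.67. Over all libraries left out in turn, the ISL1 change ran from -1.83 to -0.28. In the stricter gate ISL1 rose by 0.71 ± 0.20 (adjusted p = 0.0312) and NEUROD1 by 0.89 ± 0.23 (adjusted p = 0.0192), where 4.31% of genes rose. LHX1 and LHX9 were at least 42.2-fold and 8.71-fold lower at E28 in it, against the same limit, where 4.26% of genes fell. As both were tested only through E21, these values are a description.

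From E16 to E18 edgeR called 0 of the 4 factors, and 0.0841% of all genes. ISL1 differed by 2.46 ± 0.63 on the log2 scale at an unadjusted p of 0.00251 (adjusted p = 0.258), the only 1 of the 4 with an unadjusted p under 0.05. DESeq2 called ISL1 (adjusted p = 0.0429). In edgeR its log2 change ran from 2.27 to 2.56 with 1 library left out, each such fit having 1 library at a stage. Against the mean of both early stages, the mean of both late stages was higher for ISL1, by 3.26 ± 0.33 (adjusted p = 6.131e-05), and for NEUROD1, by 2.53 ± 0.28 (adjusted p = 9.721e-05). These were 2 of 4 factors, where 39.3% of genes were called and 21.4% rose. The stricter gate had no E16 library in its fit, so there the late stages were set against E18 alone. That difference was 1.25 ± 0.20 for ISL1 (adjusted p = 0.000217) and 0.57 ± 0.24 for NEUROD1, which was not called (adjusted p = 0.0985). The change of gate and the loss of E16 cannot be told apart in these values. LHX1 and LHX9, at -1.55 ± 1.13 and 3.44 ± 1.89, did not pass (adjusted p = 0.305 and 0.178), and without the E28 libraries LHX1 rose by 3.75.

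Between DZ and ZZ edgeR called 0 of the 4 factors tested, where 0.00841% of genes, a single gene, was called, and DESeq2 also called 0. At an unadjusted p under 0.05 stood NEUROD1, higher in DZ by 0.85 ± 0.24, and LHX1, lower in DZ by 1.14 ± 0.43, with adjusted p of 0.619 and 0.749. Without the filter on low counts these 2 of 8 factors were called (adjusted p = 0.00531 and 0.0345), where 0.786% of 16927 genes were. The LHX1 level was 77.9 CPM in ZZ and 37.7 in DZ at E21, and 6.93 then 1.08 at E18. At E16 LHX1 had 0 UMIs in ZZ, over 448668 UMIs, and was at 4.95 CPM in DZ, too few counts to order the breeds. At E28 both libraries were at 0. In the stricter gate, without E16, NEUROD1 differed by 0.33 ± 0.20 (edgeR, unadjusted p = 0.116). LHX1 differed by -1.15 ± 0.38 there (unadjusted p = 0.00735, adjusted p = 0.997). Pan-neuronal genes had a median log2 difference of 0.54 in the wider gate and 0.11 in the stricter gate, 0 of 14 called in each. Their part in the NEUROD1 value was not tested.

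Against all other cells of the same library, 3 of 5 testable factors were higher in neuron-marker cells, where 7.63% of 14872 genes were. PRDM12 passed the filter on low counts only through gated cells, so the count is a description and no test of it is given. NEUROD1 was higher by 5.41 ± 0.18 on the log2 scale (adjusted p = 9.487e-08) and ISL1 by 3.96 ± 1.05 (adjusted p = 0.0281). ISL1 lost its call without any 1 of the 4 late libraries (adjusted p from 0.0562 to 0.0688). At E16 its level was lower in neuron-marker cells than in the others, 6.69 against 9.47 CPM in ZZ and 7.92 against 12.5 in DZ, and in the other 6 libraries it was higher. The PRDM12 level in E28-DZ was 2.60 CPM in neuron-marker cells and 0.339 in the others, and in E21-ZZ 0.485 and 0.267. LHX1 and LHX9 did not pass, at 1.79 ± 1.38 and 0.98 ± 0.71. With the stricter gate, whose fit left out the E16 libraries, LHX1 also passed, by 3.38 ± 1.01 (adjusted p = 0.02). There 4 of 5 factors, PRDM12 again among them, were higher, where 18.6% of genes were. The change of gate and the loss of E16 cannot be told apart here. At E21 the ISL1 level climbed with the number of gate genes found, from 1.21 CPM with 0 and 3.04 with 1 to 58.6 with 2 and 357.1 with 3 or 4.

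Pairs of factors differed in how often they were found in the same cell. ISL1 and NEUROD1 were found together in 535 gated cells, where the product of their shares within each library gives 208.7 cells, or 230.6 when taken within 4 depth classes of each library. The number was above that product in 7 of 8 libraries, for example 247 cells against 106.7 in E21-ZZ and 98 against 27.4 in E28-DZ. In the stricter gate it was 429 cells against 270.0, or 296.8 within depth classes, a smaller excess. PRDM12 shared 23 of its 28 cells with ISL1 (6.78 by the product) and 19 with NEUROD1 (3.75 by the product). In the stricter gate it shared 14 of 16 with ISL1 (9.96 by the product, 11.0 within depth classes) and 14 with NEUROD1 (4.62 by the product).

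ISL1 and LHX1 were instead found together in 25 cells, where the product gives 163.7, or 140.7 within depth classes. In E21-ZZ this was 17 cells against 126.7 and in E21-DZ 7 against 35.1. ISL1 and LHX9 shared 2 cells (41.1 by the product, 25.4 within depth classes), and LHX1 and LHX9 shared 0 of the 5809 (21.6 and 27.4). NEUROD1 and LHX1 shared 52 cells (87.0 by the product, 79.3 within depth classes), and NEUROD1 and LHX9 shared 2 (22.0 and 15.5). In the stricter gate ISL1 and LHX1 shared 24 cells (195.5 by the product, 167.8 within depth classes). Of the 7 cells with MNX1, 4 had ISL1 (2.16 by the product), 3 had NEUROD1 (1.20 by the product) and 3 had LHX1 (0.973 by the product). These counts describe cells that share libraries and carry no test.

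**Figure D3:**
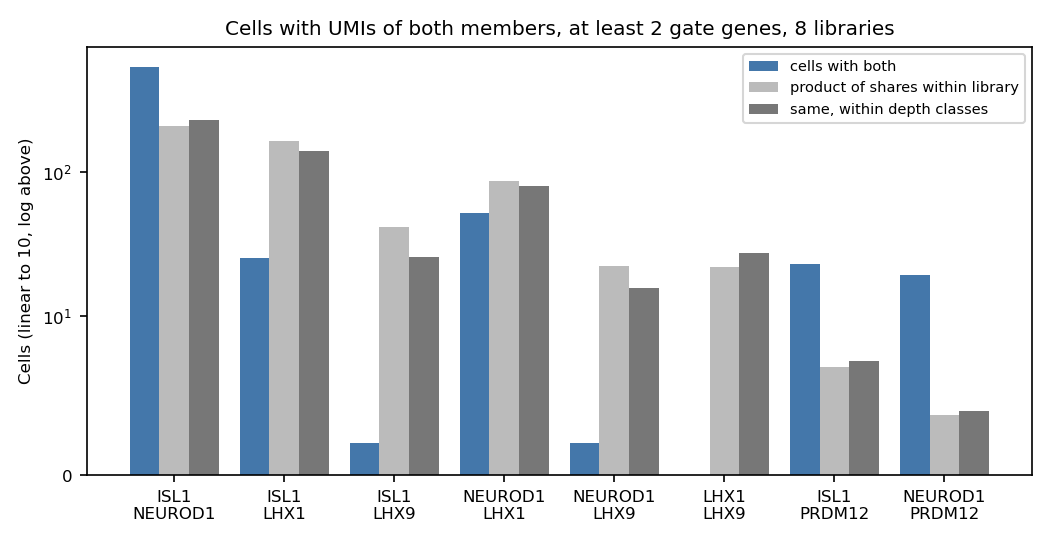
Gated cells of all 8 libraries with UMIs of both members of a pair (blue), beside the product of the 2 shares within library (light grey) and within library and depth class (dark grey), on an axis that is linear to 10 and logarithmic above. ISL1 with NEUROD1 reaches 535 cells against 208.7, and LHX1 with LHX9 has no blue bar against 21.6.

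The genes most like each factor were ranked by the CPM in gated cells with a UMI of it over that in gated cells without, after adding 10 CPM to each, as a mean over libraries with at least 20 cells of both kinds. For ISL1, over 6 libraries, these were SNCG, ENSSSCG00000002639 (TUBB3 in the reference gene names), ELAVL2, ENSSSCG00000009648 and STMN3, with ratios from 12.3 to 8.63, and SNCG, TUBB3, ELAVL2 and STMN3 are known from neurons in general. These ratios varied widely between libraries, from 1.37 to 222.1 for SNCG, a synuclein, from 1.66 to 219.4 for ENSSSCG00000002639, from 2.59 to 48.1 for ELAVL2, from 2.25 to 79.8 for ENSSSCG00000009648 and from 1.95 to 92.3 for STMN3, so their order is loose. For NEUROD1, also over 6 libraries, they were SELENOM, ASS1, ENSSSCG00000042807, HPCA and THSD7B, with ratios from 7.91 to 6.06. For LHX1, over both E21 libraries, the transcription factors LHX5 (7.79), HMX2 (5.09) and EN1 (4.34) stood beside LAMP5 (7.02) and the axon guidance receptor ROBO3 (4.14). For LHX9, again at E21, they were BARHL1 (27.1), LHX2 (24.6), BARHL2 (12.9), IGFBPL1 (10.8) and ENSSSCG00000039241 (10.8). Between the E21 libraries the ratio ran from 26.0 to 28.2 for BARHL1 with LHX9, from 7.09 to 8.56 for LHX5 with LHX1 and from 8.50 to 13.7 for ENSSSCG00000039241 with LHX9. All these ratios are from the wider gate. At least 4 pan-neuronal genes were in 15.4% and 27.5% of its E18 cells and 8.45% and 24.3% of its E28 cells. Cells without ISL1 or NEUROD1 there thus included many with few neuronal genes, and their part in the ratios was not tested.

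Shares of cells with genes of the subtype lists are given for the stricter gate, for genes chosen after their values were seen. At E21, 67.8% of 87 cells with LHX9 had BARHL1 and 44.8% LHX2, against 0.681% and 0.408% of the other 2204. LHX5 was in 41.9% and EN1 in 17.5% of 487 cells with LHX1, against 6.21% and 2.99% of the rest. Of 915 cells with ISL1, 34.4% had NTRK3, a neurotrophin receptor of sensory neurons, against 4.00% of 1376 cells without ISL1. ISL2, a paralogue found in motor and sensory neurons, was in 45.1% against 14.5%, and SLC5A7, the choline transporter of motor neurons, in 21.9% against 11.6%. At E18 the 72 cells with ISL1 had NKX6-1, a ventral neural tube factor, in 54.2% and SLC5A7 in 44.4%, against 21.1% and 17.9% of the other 123. At E28 the 198 cells with ISL1 had PRPH in 79.8% and the sodium channel SCN9A in 66.7%. Both are on the list of sensory neuron genes, and 7.5% and 5% of the 40 cells without ISL1 had them. In this gate at E28, 36 of 49 cells (ZZ) and 162 of 189 (DZ) had at least 4 pan-neuronal genes. Fibroblast markers were in 17 and 35 of these cells. Whether the 40 cells without ISL1 were neurons was not tested.

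**Figure D4:**
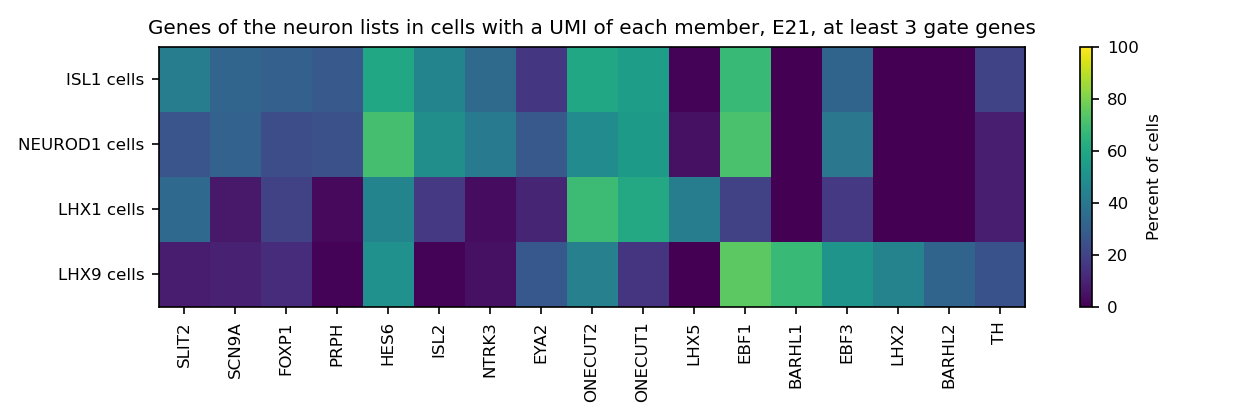
Percent of E21 cells with at least 3 gate genes and a UMI of ISL1, NEUROD1, LHX1 or LHX9 (4 lines) that also had each plotted gene of the neuron lists, all of which reached at least 25% in any of the 4; dark is 0 and yellow 100. BARHL1, LHX2 and BARHL2 light up only in the LHX9 line (67.8% for BARHL1) and LHX5 in the LHX1 line (41.9%), while the ISL1 and NEUROD1 lines are alike for ISL2 (45.1% and 49.3%) and NTRK3 (34.4% and 40.7%).

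The lists of subtype genes were also counted as a whole. From E21 to E28 in the stricter gate, 9 of 14 tested sensory neuron genes rose and 0 fell, where 4.31% of all genes rose and 4.26% fell, with a median log2 change of 1.82 beside 0.0028 over all genes tested. PRPH went from 213.5 and 176.2 CPM to 2259 and 3146. Of 8 tested motor neuron genes 7 fell and 0 rose, among them SLC5A7 (60.9 and 45.1 to 0 and 3.53 CPM) and SLIT2 (207.7 and 251.6 to 23.4 and 7.95). The 5 tested of 22 spinal interneuron genes fell, including LHX5 from 53.1 and 38.5 CPM to 0 in both libraries. Genes at 0 at E28 could enter the test only through earlier libraries. Likewise, genes low in the earlier libraries could enter only through E28, where they were high. The counts of each list are therefore a description. Of the autonomic genes 2 of 4 fell, and of the neurogenic cascade genes 2 rose and 2 fell of 9.

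In the wider gate 5 sensory genes rose and 2 fell of 15, 7 motor genes fell of 8, and 9 interneuron genes fell of 13, where 11.6% of all genes rose and 11.3% fell. The filter on low counts sets the same limits in the wider gate. There 12 of 14 pan-neuronal genes (median -1.78) and 5 of 6 autonomic genes fell too, against 2 of 14 pan-neuronal genes in the stricter gate. From E18 to E21 in the stricter gate, 8 of 14 sensory genes rose and 1 fell, 4 of 8 motor genes rose and 2 fell, and 1 of 5 interneuron genes rose, where 11.1% of all genes rose and 10% fell. Of 9 neurogenic cascade genes 1 rose and 4 fell there, and of 4 autonomic genes 0 rose and 1 fell. The E18 cells of the stricter gate also had the lower pan-neuronal shares given above.

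ISL1, LHX1 and LHX9 were also found in cells without the neuron gate. ISL1 was found in 836 cells without the gate at E16 and 684 at E18, against 108 at E21 and 105 at E28. At E16 its level was highest in cells with at least 2 limb bud markers (TBX5, TBX4, PITX1, PRRX1, FGF10), at 16.0 CPM in ZZ and 36.0 in DZ, with a UMI in 13.9% and 22.3% of them. In cells with lateral plate and cardiac markers such as GATA4 and HAND2 it was 13.3 and 22.0 CPM at E16 and 26.6 and 24.2 at E18. Endothelial-marker cells had 6.13 and 6.70 CPM at these stages.

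LHX1 was at its highest in any marker group in cells with intermediate mesoderm markers (PAX2, OSR1, WT1, EMX2), the source of the kidney. Its level there was 39.0 and 55.6 CPM at E16 and 117.4 and 107.0 at E18, and 23.5%, 30.4%, 55.8% and 58.3% of these cells had a UMI. The cells themselves differed in number, 267 in E18-ZZ and 72 in E18-DZ, as did all LHX1 cells without the gate, 474 and 100. At E21 only 53 cells had these markers, and 2 had LHX1.

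LHX9 outside the gate differed between the E21 libraries. It was found in 210 cells of E21-DZ, with 543 UMIs, and in 18 cells of E21-ZZ, with 31 UMIs. In limb bud-marker cells the level was 44.8 CPM (95% counting interval 35.2 to 56.3) in E21-DZ and 0 UMIs in the 97 such cells of E21-ZZ, against 256 in E21-DZ. Inside the gate the libraries stood at 15.8 and 19.4 CPM. There was 1 library of each breed at this stage, so this difference was not tested.

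**Figure D5:**
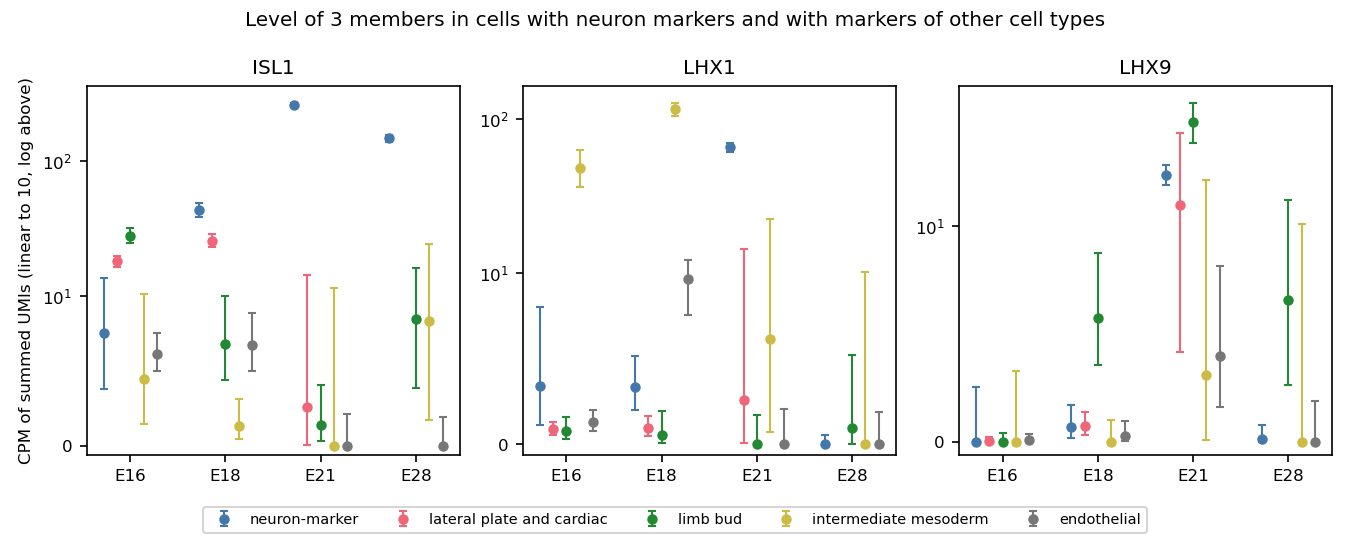
CPM of ISL1, LHX1 and LHX9 by stage, pooled over both libraries, in neuron-marker cells (blue) and in cells without the neuron gate but with at least 2 markers of lateral plate and cardiac (red), limb bud (green), intermediate mesoderm (yellow) or endothelial cells (grey), with exact 95% Poisson intervals on an axis linear to 10 and logarithmic above. Intermediate mesoderm leads for LHX1 at E16 and E18 (48.0 and 114.9 CPM) and neuron-marker cells lead at E21 (65.1 CPM).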

How the data were processed

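The authors made the deposited UMI counts from 10x Chromium 3' v3 libraries with Cell Ranger (3.1.0 for E16, 3.0.2 otherwise, so version and stage cannot be told apart) on Sscrofa11.1. The UMI counts are whole numbers, not normalized.

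Kept barcodes had at least 200 genes, at most 30000 UMIs and at most 10% of UMIs from mitochondrial genes. Doublets were then taken as the highest Scrublet scores (scanpy 1.11.5) up to 0.8% per 1000 barcodes. This removed 8247 barcodes. Of 90688 barcodes 74147 remained. Marker groups needed at least 2 genes of a list. Thinning drew 1500 UMIs per cell and left out 104 shallower gated cells. Thinned shares of cells with a factor are of cells gated at full depth.

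Counts summed per library (at least 20 cells) were tested with edgeR 4.0.16 in R 4.3.3 (TMM, its filter on low counts, a term per stage and breed, or the library as a block against other cells), at an adjusted p of 0.05, with DESeq2 1.42.0 as an alternative. The stricter gate therefore had no E16 library. The SE beside an edgeR log2 change is its absolute value over the square root of the F statistic of the test. Scripts were tested on simulated data. Sums behind the gate ran from 448668 to 10305483 UMIs. Shares have exact binomial and levels exact Poisson intervals at 95%, which cover counting error only. Python 3.11.15, scipy 1.17.1 and pandas 2.3.3 were used.

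Named genes were the 8 members, the 5 most like each (found in at least 10% of cells with the member, ratio over 1 in each library), and list genes by mean CPM. Other list genes, chosen after their values were seen, are named for their share in cells with a member. The members and lists were chosen with earlier results of these data known. Sequences are from the RefSeq assembly of Sscrofa11.1, the build of the counts. Cell type names of the authors were not used here. Some list genes, and upstream sequences of members other than the 3 printed, are not reported here.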

Additional observations from a re-analysis of the deposited data

Results flagged for a closer look

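The NEUROD1 level in neuron-marker cells moved in opposite directions between E21 and E28 in the breeds. On the log2 scale the ratio of CPM was -1.08 in ZZ and 0.25 in DZ. Each breed had 1 library per stage, so the difference was not tested. Fibroblast markers were found in 89.5% of the gated cells of E28-ZZ and 73.7% of those of E28-DZ, and in the stricter gate both breeds were higher at E28. This was 1 of 8 member and stage pairs compared.

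The early and the late libraries of each factor were compared by Dixon's ratio, 14 groups in all. In 2 of them, both among the 4 early libraries, a library stood far from the other 3. Both rest on a single UMI beside libraries at 0. The ratio is then at its highest by construction, so the usual rate of 1 in 20 does not apply. NEUROG1 was at 0.433 CPM in E18-ZZ and 0 in the others, and PRDM12 at 0.27 CPM in E18-DZ and 0 in the others.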

How the results depend on the processing

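Counts of members called changed with the gate, filters, test and libraries, and the cause was not tested. Shares in parentheses are of all genes called, in either direction. For late against early libraries 2 of 4 members were called (39.3%). The stricter gate gave 1 of 4 (21.6%), with E18 as its only early stage, so gate and stage changed together. The count was 5 of 5 with a gate of 1 gene, 4 higher and 1 lower (51.4%). It was 1 of 4 at a mitochondrial limit of 5% (27.4%) and 4 of 4 without the E28 libraries (48.8%). For E18 against E16, 0 of 4 (0.0841%) became 1 of 4 with DESeq2 (0.311%) and 1 of 8 with no low-count filter (1.31%). For E28 against E21, 2 of 4 (22.9%), both lower, became 4 of 4 in the stricter gate, 2 higher and 2 lower (8.57%), and 4 of 5 with a gate of 1, all lower (15.8%). They were 3 lower with DESeq2 size factors (23.1%) and 3 of 8 lower with no low-count filter (20%). For DZ against ZZ, 0 of 4 (0.00841%) became 2 of 8 with no low-count filter (0.786%). For neuron-marker against other cells, 3 of 5 (18.9%) became 5 of 8 with no low-count filter (14.7%) and 1 of 5 with a gate of 1 (3.01%). Leaving out each library in turn gave 1 to 3 for neuron-marker against other cells. In the fits between stages this leaves 1 library at a stage, so no counts of calls are given for them.

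Directions turned for values that had not passed. LHX1, late against early, ran from -2.16 to 2.27 with a library left out, and was 3.75 without the E28 libraries and 2.86 with 1 term for late. LHX1, E18 against E16, was 0.034 with DESeq2, 1.16 with a gate of 1 and 0.30 with no doublets removed, and ran from -1.48 to 7.51 with a library left out, the last being a fitted value over an E16 library with 0 UMIs of LHX1 and no bound. E28 against E21 was 0.71 for ISL1 and 0.89 for NEUROD1 in the stricter gate, and ran from -0.94 to 0.14 for NEUROD1 with a library left out. ISL1 in DZ against ZZ was -0.024 in the stricter gate and ran from -0.030 to 0.99 with a library left out. LHX9 in neuron-marker against other cells ran from -0.20 to 1.37 with a library left out. Of 64 thinned shares, 22 moved beyond their interval in the stricter gate, 17 without thinning and 0 with doublets kept. PRDM12, MNX1, NEUROG1 and POU4F1 had 3 to 28 gated cells each and did not enter the main tests between stages, so differences in them were not tested there.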

Other observations

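Shares of cells with other neuron genes are given for NEUROD1, PRDM12 and LHX9 in the stricter gate, as counts of cells that share libraries and with no test. Of 85 cells with NEUROD1 at E28, 35.3% had NEUROD4, a helix-loop-helix factor of young neurons, and 28.2% had EYA2, against 3.27% and 8.50% of 153 cells without NEUROD1. TAC1, the precursor of substance P, was in 12.9% against 54.2%, ISL2 in 15.3% against 57.5% and PRPH in 50.6% against 77.1%, although 95.3% of the NEUROD1 cells had ISL1. At E21 the share of ISL2 was higher with NEUROD1, at 49.3% against 21.2%.

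The 16 cells of the stricter gate with PRDM12 had ISL1 in 14 and NEUROD1 in 14. None had LHX1 or SLC5A7. For LHX1 the product of shares gives only 1.31 cells, or 0.975 within depth classes, so nothing is read from its absence. No product is given for SLC5A7. Cells with LHX9 at E21 also had DLL3, a Notch ligand of differentiating cells, in 21.8% against 4.81% of the others, and TH in 25.3% against 16.1%.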
